A study of Mus musculus with 4 samples.

Results

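The genes described here are 9 regulators of muscle cell identity and myoblast fusion: the paired-box factors Pax7 and Pax3, the myogenic factors Myf5, Myod1, Myf6 and Myog, the fusion proteins Mymk and Mymx, and the adhesion gene Cdh15. They were taken by name from the genes paired with a probe set of their own on a whole-transcript array, and all 9 were found among 22180 such genes. Each had 1 probe set with a single gene symbol, so no choice between probe sets was needed. The array was hybridised with total RNA from the quadriceps of 2 mice carrying transgenes for NF90 and NF45 (NF90-NF45 dbTg) and 2 wild-type mice (WT), 1 mouse per array. In each group replicate 1 was male and replicate 2 female. All mice were 16 weeks old except WT replicate 1, which was 17 to 18 weeks old. The promoter that drives the transgenes and the strain of the mice are not stated in the labels. The question asked of the 9 genes was which of them differ in muscle that carries both transgenes.

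Skeletal muscle fibres are formed from precursor cells in steps that these genes mark. Pax7 and Pax3 act in muscle stem cells (satellite cells) and their embryonic forerunners, Myf5 and Myod1 commit cells to the muscle lineage, and Myog, which encodes myogenin, and Myf6, which encodes MRF4, act as cells differentiate. The 4 myogenic factors bind the E-box, a short DNA motif, as dimers with ubiquitous E proteins. Myomaker (Mymk) and myomerger (Mymx) are membrane proteins that carry out the fusion of myoblasts, and Cdh15, M-cadherin, joins muscle precursor cells to each other and to the fibre. In adult fibres Myf6 is the most abundant of the myogenic factors, and Myog is known to return when a fibre loses its nerve.

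Myf5 and Mymk rose in dbTg muscle, Mymk 9.24-fold and Myf5 2.18-fold, and none of the other 7 genes passed the test (limma, Benjamini-Hochberg adjusted over 13308 tested genes, threshold 0.05). The WT arrays of Mymk lay 1.70 apart on the log2 scale, so the size of its rise depends on which WT mouse is used. Neither Mymk nor Myf5 was called after quantile normalization (adjusted p = 0.0618 and 0.0543) or median centring of the arrays (0.0504 and 0.0763). The call of Myf5 depends on the intensity filter, a mean over the 4 arrays at or above the 40th percentile of all genes (adjusted p = 0.0578 without it), and its WT signal was so dim that its fold is one of measured signal only. Thus 2 of the 9 were called higher, against 2.01% of all tested genes, and 0 were called lower, against 0.203%. At an unadjusted p under 0.05, 5 of the 9 were higher, where 14% of all tested genes were, and 0 were lower, where 4.64% were. The same 5 genes, Myf5, Myod1, Myf6, Myog and Mymk, had both dbTg arrays above both WT arrays, as did 33.7% of all tested genes, and none had both below, as 16.3% had. These shares over all tested genes also stand beside the counts of every list below. The median difference of the 9 genes, dbTg minus WT, was 0.72 on the log2 scale, and that of all tested genes 0.09. The genes were chosen with earlier results of these arrays known, so these counts describe them and test nothing about them as a group.

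Promoter sequences of 4 of the 9 genes were at hand (RefSeq, GRCm38.p6, from 250 bases before to 50 bases after the annotated start). Those of Myog and Myf5 are shown because both genes had groups that did not overlap, and that of Cdh15 because its groups overlapped. Capitals mark each E-box, searched as CANNTG, which reads the same way on both strands.
Myog, chr1:134289754-134290053, plus strand: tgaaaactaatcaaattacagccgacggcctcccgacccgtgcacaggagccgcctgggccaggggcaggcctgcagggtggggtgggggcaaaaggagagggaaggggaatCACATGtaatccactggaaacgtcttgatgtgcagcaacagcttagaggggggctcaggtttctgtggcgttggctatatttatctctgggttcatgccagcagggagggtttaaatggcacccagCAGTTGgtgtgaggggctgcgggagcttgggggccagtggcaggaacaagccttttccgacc
Myf5, chr10:107486085-107486384, minus strand: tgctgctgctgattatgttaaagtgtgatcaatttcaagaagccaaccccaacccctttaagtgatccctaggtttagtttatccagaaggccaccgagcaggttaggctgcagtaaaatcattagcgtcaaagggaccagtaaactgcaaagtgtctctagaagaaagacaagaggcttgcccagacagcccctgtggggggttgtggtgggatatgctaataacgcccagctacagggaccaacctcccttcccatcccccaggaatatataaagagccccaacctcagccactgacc
Cdh15, chr8:122848124-122848423, plus strand: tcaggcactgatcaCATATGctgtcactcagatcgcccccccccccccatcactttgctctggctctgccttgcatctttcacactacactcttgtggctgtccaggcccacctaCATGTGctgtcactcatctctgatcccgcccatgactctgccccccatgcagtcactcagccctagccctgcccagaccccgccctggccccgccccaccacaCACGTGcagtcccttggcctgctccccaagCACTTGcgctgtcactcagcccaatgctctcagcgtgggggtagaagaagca
The Myog window held 2 E-boxes, CACATG with its first base at -138 and CAGTTG at -12, counted from the annotated start with -1 as the last base before it. The Cdh15 window held 4, at -236, -135, -32 and -2, and the Myf5 window held 0, as did that of Pax7. Of 32851 promoter windows in the table, 72.3% held at least 1 CANNTG, 39.6% at least 2 and 6.49% at least 4. No E-box was of the form CAGCTG, which 16.3% of all windows held. These are matches of letters and say nothing on whether a factor was bound.

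**Figure D1:**
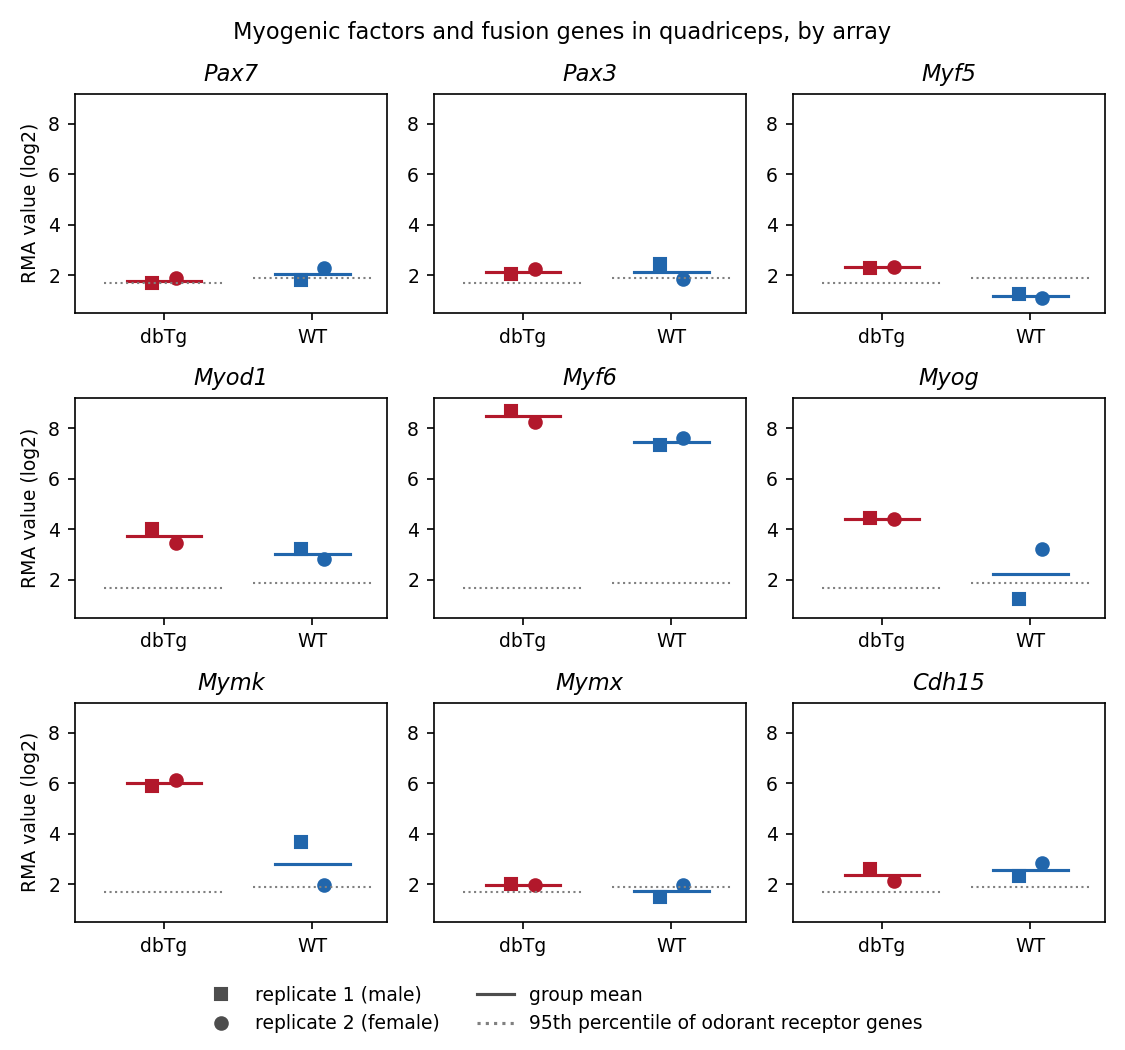
RMA values (log2 scale, vertical axis) of the 9 genes on each array, with dbTg to the left of WT in every panel. Squares are replicate 1 (male), circles replicate 2 (female), solid lines the group means, and dotted lines the mean, over a group's arrays, of the 95th percentile of odorant receptor genes. Myf5, Myod1, Myf6, Myog and Mymk have both dbTg arrays above both WT arrays, and the WT arrays of Myog and Mymk lie far apart.

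Values are the deposited RMA values on the log2 scale, each gene's read on its own probe set and not comparable in height with another gene's. As a view of dim signal, 1105 odorant receptor genes, a family known mainly from the nose and chosen for this use after the values were seen, had 95th percentiles of 1.66 and 1.71 on the dbTg arrays, against 1.92 and 1.86 on the WT arrays. Their medians were 0.78 and 0.76 in dbTg, against 0.99 and 0.99 in WT, so dim probe sets read slightly lower on the dbTg arrays. Across the tested genes Pearson's r was 0.981 between the dbTg arrays, 0.966 between the WT arrays and 0.946 to 0.953 between the groups (a correlation over genes, which are no independent replicates). Ilf2, the gene of NF45, read 10.36 and 10.16 in dbTg, against 5.03 and 5.04 in WT. With 2 arrays against 2 an exact permutation test of a single gene cannot give a two-sided p below 0.333, so the tests rest on limma's model across all genes.

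The stem cell factors did not separate the genotypes. Pax7, which maintains satellite cells, read 1.69 and 1.90 in dbTg and 1.83 and 2.31 in WT. Pax3, its paralogue of the embryonic muscle precursors, read 2.06 and 2.24 in dbTg and 2.45 and 1.85 in WT. For both genes the groups overlapped, and the values were dim, near the 95th percentiles of the odorant receptor genes. The difference was -0.28 for Pax7 (SE 0.23, 95% confidence interval -0.84 to 0.28, adjusted p = 0.586). For Pax3 it was -0.002 (SE 0.26, interval -0.62 to 0.62, adjusted p = 0.999). A rise of measured signal as large as that of Myf5, described next, lies outside both intervals. At signal this dim, a change of RNA below what these probe sets can read was not detectable. In whole muscle, fewer cells of a type and less RNA per cell cannot be told apart, here and for every gene below.

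Myf5, the earliest of the myogenic factors in development, rose from a dim signal. It read 2.27 and 2.35 in dbTg, against 1.27 and 1.11 in WT. Both dbTg arrays lay above the 95th percentile of the odorant receptor genes on the same array, and both WT arrays lay below it. The group means were 2.31 ± 0.05 in dbTg and 1.19 ± 0.11 in WT (SD, n = 2 each), a difference of 1.12 (SE 0.18, interval 0.68 to 1.56, adjusted p = 0.0397). The WT mean lay under the intensity filter of 1.48, so Myf5 entered the test through its dbTg values. Its difference was 1.12 after quantile normalization and 0.87 after median centring of the arrays, with an adjusted p of 0.0543 and 0.0763. The adjusted p was 0.0578 without an intensity filter. With the replicate number, which separates the sexes, as a block it was 0.0958.

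Myf6 lies next to Myf5 on chromosome 10, with 0 annotated genes between them, and was bright on all 4 arrays. It read 8.69 and 8.26 in dbTg, against 7.32 and 7.61 in WT. The dimmer dbTg array was 0.64 above the brighter WT array. The means were 8.47 ± 0.31 in dbTg and 7.47 ± 0.20 in WT (SD, n = 2 each). The difference of 1.01 (SE 0.19, interval 0.55 to 1.46), 2.01-fold, missed the threshold narrowly (adjusted p = 0.0542). It passed with the intensity filter at the 60th percentile (adjusted p = 0.0444) and with robust eBayes (0.047). It did not pass after quantile normalization (adjusted p = 0.0812) or median centring (0.105). Nor did it pass without an intensity filter (0.0723) or with the replicate number as a block (0.112). With 1 array left out the difference ranged from 0.79, without dbTg replicate 1, to 1.22, without dbTg replicate 2.

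Myod1, the factor that can turn other cells into muscle cells, read 4.03 and 3.44 in dbTg, against 3.22 and 2.81 in WT. The groups did not overlap, but the dimmer dbTg array was only 0.22 above the brighter WT array, less than the gap of 0.59 between the dbTg arrays. The difference was 0.72 (SE 0.28, interval 0.05 to 1.39, adjusted p = 0.238). It was 0.51 after quantile normalization and 0.42 without dbTg replicate 1, and its adjusted p stayed between 0.117 and 0.726 in all alternatives.

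Myog separated the genotypes on every array but its WT arrays did not match each other. Myogenin mRNA read 4.44 and 4.39 in dbTg, against 1.25 and 3.24 in WT. WT replicate 1, the male, lay below the 95th percentile of the odorant receptor genes and WT replicate 2, the female, above it, a gap of 1.98 between WT mice where the dbTg mice were 0.05 apart. The difference of 2.18 (SE 0.58, interval 0.80 to 3.55, adjusted p = 0.111), 4.52-fold, did not pass the test. Within the male pair of mice it was 3.19 and within the female pair 1.16. Without WT replicate 1 it was 1.18 and without WT replicate 2 it was 3.17, so the size of the difference depends on which WT mouse is used.

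Mymk, the fusion protein myomaker, had the largest difference of the 9 genes. It read 5.90 and 6.14 in dbTg, against 3.66 and 1.96 in WT. The WT arrays again lay apart, by 1.70, but in the other direction from Myog: here the male read higher and the female lay just above the odorant receptor genes' 95th percentile. The means were 6.02 ± 0.17 in dbTg and 2.81 ± 1.21 in WT (SD, n = 2 each), a difference of 3.21 (SE 0.50, interval 2.01 to 4.40, adjusted p = 0.0353). Between the male mice the difference was 2.23, and between the female mice 4.18. Without WT replicate 1 it was 4.06 and without WT replicate 2 it was 2.35. Mymk lost its call after quantile normalization (3.10, adjusted p = 0.0618) and, barely, after median centring (2.96, adjusted p = 0.0504). It was also not called with the replicate number, which separates the sexes, as a block (adjusted p = 0.0768).

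Mymx, whose product myomerger completes fusion after myomaker, read 2.00 and 1.95 in dbTg and 1.48 and 1.97 in WT. The groups overlapped and the difference was 0.25 (SE 0.23, interval -0.28 to 0.79, adjusted p = 0.608). The signal was dim on all arrays, between 1.48 and 2.00, so a change of Mymx RNA below what this probe set can read was not detectable. Whether Mymk and Mymx differ in their response was not tested.

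Cdh15 read 2.59 and 2.14 in dbTg and 2.34 and 2.83 in WT. The groups overlapped, with a difference of -0.22 (SE 0.27, interval -0.87 to 0.43, adjusted p = 0.723). It was positive in the male pair (0.25) and negative in the female pair (-0.69).

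**Figure D2:**
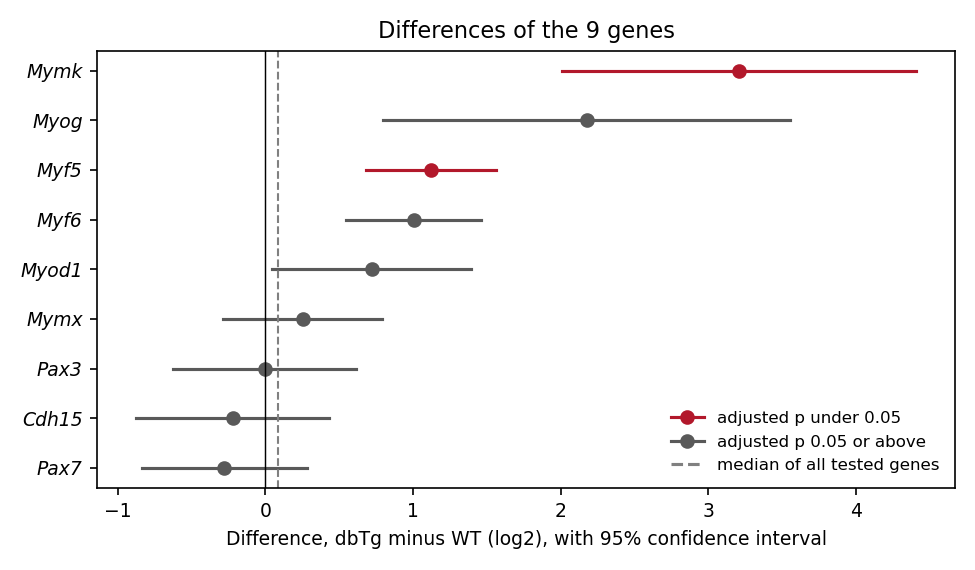
Difference between dbTg and WT (log2, horizontal axis) for each of the 9 genes, with its 95% confidence interval from limma. Mymk at 3.21 and Myf5 at 1.12 are the genes with an adjusted p under 0.05 (red), the intervals of Myf6, Myog and Myod1 also lie above 0, and those of Mymx, Pax3, Cdh15 and Pax7 include 0. The dashed line is the median of all tested genes, 0.09.

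The calls of Mymk and Myf5 rest on both dbTg arrays. Without dbTg replicate 1 the adjusted p was 0.208 for Mymk and 0.21 for Myf5, and without dbTg replicate 2 it was 0.305 for both, while the differences stayed between 3.09 and 3.33 for Mymk and between 1.08 and 1.16 for Myf5. In these fits the lone dbTg array is assumed to vary like the WT arrays, and over all genes 4 were called higher and 0 lower (lower with an unadjusted p under 0.05: 343 genes without dbTg replicate 1, 247 without dbTg replicate 2). Leaving out a WT array moved Myf5 little, to 1.20 without replicate 1 and 1.04 without replicate 2. In fits without a WT array, a gene's own spread comes from the 2 dbTg arrays alone. The gap between the WT mice, wide for Myog and Mymk, then drops out, so calls in these fits are not read as support. Of the other genes named as rising below, Ctss alone kept its call without either dbTg array, as did Ilf2.

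**Figure D3:**
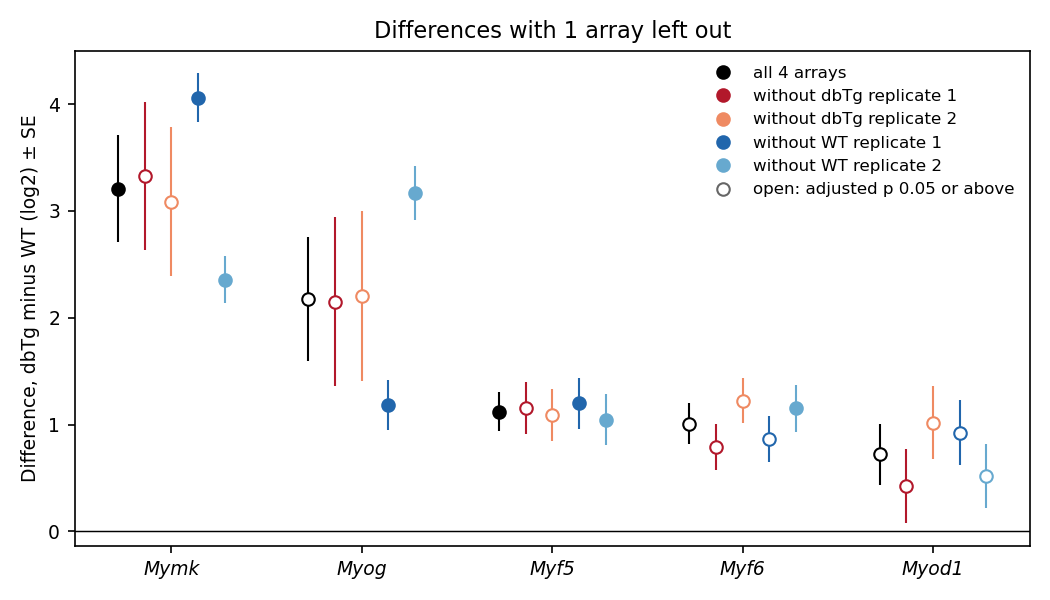
Difference between dbTg and WT (log2 ± SE, vertical axis) of the 5 genes whose groups did not overlap, with all 4 arrays (black) and with 1 array left out (colours). Filled points have an adjusted p under 0.05, which with a WT array left out ignores the spread between the WT mice. Leaving out a WT array moves Mymk between 2.35 and 4.06 and Myog between 1.18 and 3.17, and Myf5 stays between 1.04 and 1.20 throughout.

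The partners and inhibitors of the myogenic factors were described from a list of 10 basic helix-loop-helix proteins and related genes. All 10 were tested, 1 rose, 0 fell, and the median difference was 0.30. The gene that rose was Id2, an inhibitor that binds E proteins and keeps them from DNA. It read 4.60 and 4.88 in dbTg, against 2.79 and 2.34 in WT, a 4.51-fold rise (log2 difference 2.17, SE 0.24, adjusted p = 0.0137). With the replicate number as a block Id2 was not called (adjusted p = 0.0589). Of the other list members, 2 had negative differences, and 1 of the other positive ones was at an unadjusted p under 0.05. Among MEF2 factors, which work with the myogenic factors on muscle genes, and the class II histone deacetylases that restrain them, 0 of 7 tested genes were called in limma (unadjusted p under 0.05 for 1 higher and 0 lower genes; median -0.04). Hdac9 read 2.87 and 3.02 in dbTg, against 2.24 and 1.60 in WT (difference 1.02, adjusted p = 0.112), and Mef2d differed by -0.27 (adjusted p = 0.425).

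No tested gene that acts upstream of the myogenic factors passed the test. Of 10 listed, 8 were measured and tested, and 0 were called in limma, and unadjusted p-values under 0.05 were reached by 0 higher and 2 lower genes (median -0.12). Eya1, a transcriptional coactivator of muscle precursors, read 6.29 and 6.25 in dbTg, against 6.92 and 6.95 in WT. Its groups did not overlap, and its difference was -0.66 (SE 0.15, adjusted p = 0.0775). After median centring, which shifts all differences so that their median is -0.16, it was -0.91 and called (adjusted p = 0.044). No other alternative called Eya1. Dach2, a repressor of Myog in innervated muscle, read 1.24 and 1.10 in dbTg, against 1.44 and 2.46 in WT (difference -0.78, adjusted p = 0.268). Only WT replicate 2 lay above the 95th percentile of the odorant receptor genes, and the dbTg mean of 1.17 lay under the filter, so the gene entered the test through its WT values. The difference of Dach2 without WT replicate 1, -1.29, rests on that single WT array.

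Satellite cell surface and signalling genes had 0 of 16 tested members called in limma, and unadjusted p-values under 0.05 were reached by 4 higher and 1 lower gene (median 0.24). Of all tested genes, 14% were higher and 4.64% lower at that level. A further 2 listed genes lay under the intensity filter. Vcam1, an adhesion molecule of satellite cells and of activated endothelium, read 3.33 and 3.39 in dbTg, against 2.31 and 1.58 in WT (difference 1.42, adjusted p = 0.0618). Itga7, the laminin receptor subunit of fibres and satellite cells, read 5.08 and 4.91 in dbTg, against 4.18 and 3.85 in WT (difference 0.98, adjusted p = 0.0698). Neither gene's groups overlapped. Without WT replicate 1, the brighter WT array for both genes, the differences were 1.78 for Vcam1 and 1.15 for Itga7. That value of Vcam1 rests on WT replicate 2 alone, which lay below the odorant receptor genes' 95th percentile of 1.86 on that array. Between the male mice the differences were 1.02 for Vcam1 and 0.90 for Itga7, and between the female mice 1.81 and 1.06. Of 10 proliferation genes, 4 were tested and 0 called in limma (unadjusted p under 0.05 for 2 higher and 0 lower genes). Mki67, a marker of dividing cells, differed by 0.75 (adjusted p = 0.129) and Pcna, the DNA polymerase clamp, by 0.69 (adjusted p = 0.146).

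Among 28 other genes of myoblast adhesion and fusion, 26 were tested, 2 rose and 0 fell, with a median of 0.30. Ncam1, an adhesion molecule of embryonic and denervated fibres, read 6.72 and 7.07 in dbTg, against 4.02 and 3.77 in WT. This was an 8.01-fold rise (log2 difference 3.002, SE 0.20, adjusted p = 0.00309). Il4ra, the receptor subunit through which interleukin-4 acts on myotube growth and also on leukocytes, read 3.22 and 3.11 in dbTg, against 2.00 and 1.91 in WT (difference 1.21, SE 0.21, adjusted p = 0.0437). Neither gene's groups overlapped, and Il4ra lost its call after quantile normalization (adjusted p = 0.0777) and without an intensity filter (0.0567). At an unadjusted p under 0.05, 9 of the 26 were higher, where 14% of all tested genes were, and 1 was lower, where 4.64% were.

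Muscle genes known to be driven by the myogenic factors were higher in part. Of 17 listed, 16 were tested, 5 rose and 0 fell, with a median difference of 1.19, and 12 were higher at an unadjusted p under 0.05. Differences were positive for 13 genes and negative for 3, none of the 3 called in limma. These were Fbxo32 (-0.82, adjusted p = 0.291), Ckm (-0.36, 0.36, both dbTg arrays below both WT arrays) and Trim63 (-0.27, 0.846). Myh3, the embryonic myosin heavy chain, read 5.41 and 5.52 in dbTg, against 1.82 and 1.06 in WT (difference in measured signal 4.03, adjusted p = 0.00309). Both WT arrays lay below the 95th percentile of the odorant receptor genes and the WT mean of 1.44 under the filter, so Myh3 entered the test through its dbTg values. The acetylcholine receptor subunit gene Chrna1 rose by 2.52 (adjusted p = 0.00309) and Chrng, the fetal receptor subunit, by 1.40 (adjusted p = 0.0429). Tnnt2, the cardiac and embryonic troponin T, rose by 2.45 (adjusted p = 0.00309). Myl4, the embryonic myosin light chain, rose by 1.36 (adjusted p = 0.0333) and completes the 5. After quantile normalization Chrng and Myl4 were not called (adjusted p = 0.0816 and 0.0635). Chrng was also not called without an intensity filter (0.0534) or with the filter at the 20th percentile (0.051). The list was drawn up with earlier results of these arrays known, which showed several of these genes as higher.

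**Figure D4:**
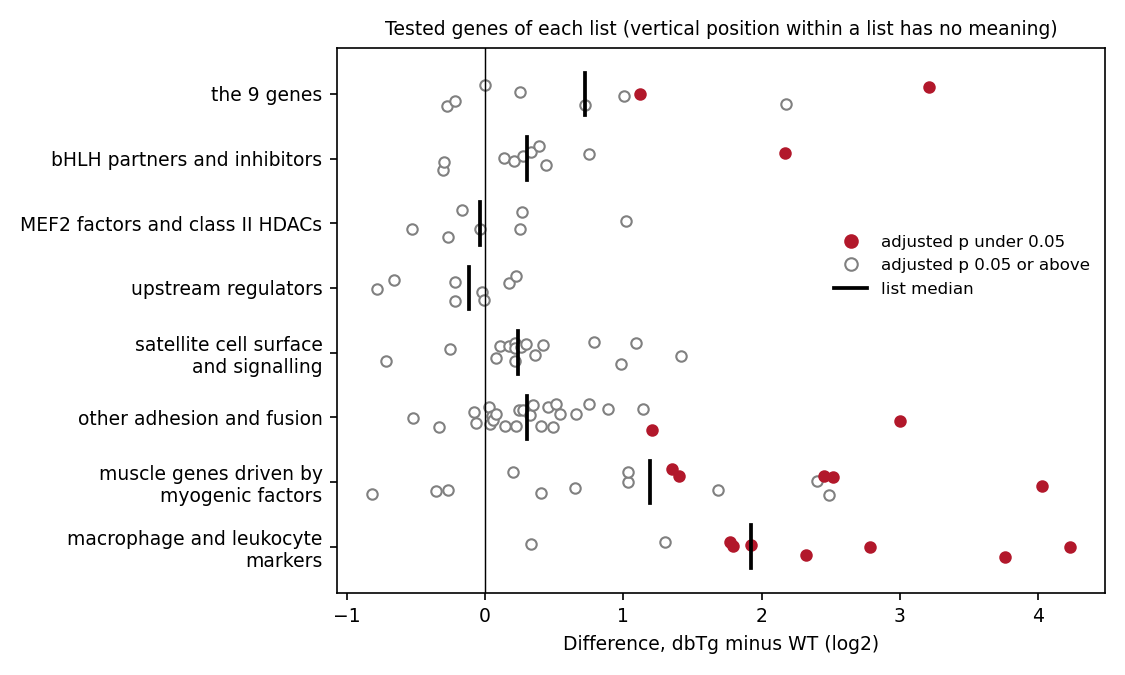
Difference between dbTg and WT (log2, horizontal axis) of each tested gene in 8 lists, 1 row per list. Red points have an adjusted p under 0.05 and black bars are list medians. The 9 genes have a median of 0.72, muscle genes driven by the myogenic factors 1.19, and macrophage and leukocyte markers 1.92.

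Markers of other cells in the muscle moved in the same mice. Of 9 macrophage and leukocyte markers 7 rose and 0 fell (median 1.92), and their summed linear signal was 609 and 506 in dbTg, against 89.1 and 86.7 in WT. Ctss, Cd68, Ptprc and Lyz2 rose most among them, by 4.23, 3.76, 2.79 and 2.32 on the log2 scale. Muscle fibre markers summed to 14342 and 13300 in dbTg, against 13113 and 13447 in WT, with 0 of 10 called in limma (unadjusted p under 0.05 for 2 higher and 0 lower genes), and all 10 were above the odorant receptor genes' 95th percentile on every array. The defining markers of skeletal muscle were thus bright in both groups. Endothelial markers summed to 134 and 172 in dbTg, against 251 and 245 in WT, with 0 of 5 called in limma (unadjusted p under 0.05 for 0 higher and 3 lower genes). All 5 had both dbTg arrays below both WT arrays, as did 16.3% of all tested genes, and their median difference was -0.58. Markers of fibroblasts and adipogenic progenitors summed to 930 and 1020.0 in dbTg, against 759 and 657 in WT (0 of 5 called in limma, unadjusted p under 0.05 for 3 higher and 0 lower genes). Adipocyte markers summed to 370 and 325 in dbTg, against 200.4 and 252 in WT, with 2 of 5 called, Adipoq (1.47) and Lep (1.31), neither of them called after quantile normalization (adjusted p = 0.0664 for each). The WT mean of Lep, 1.26, lay under the filter and both its WT arrays below the odorant receptor genes' 95th percentile, and it was not called without a filter (adjusted p = 0.0636) or with the filter at the 20th percentile (0.0574). Of 5 Schwann cell markers 3 were measured, and 0 of them were above the odorant receptor genes' 95th percentile on every array. Linear sums weigh the brightest probe set most, which was Dcn (difference 0.31) among the fibroblast and adipogenic progenitor markers. Among the adipocyte markers it was Fabp4 (difference 0.52). Neither was called in limma (adjusted p = 0.31 and 0.163). The part of the cells so marked in the differences of the 9 genes was not tested.

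The profiles most like those of Mymk and Myf5 were sought among the tested genes, by the root mean square difference of values centred on each gene's mean over the 4 arrays. With 4 arrays this describes likeness and no more. Nearest to Mymk were Ly86, a cell surface partner of a Toll-like receptor homologue on immune cells, at 0.28 on the log2 scale, the ectodysplasin receptor gene Eda2r at 0.31 and the interferon-inducible GTPase gene Iigp1 at 0.32. Being picked for likeness on these same arrays, all of them also read higher in the male of the 2 WT mice. Ly86 read 5.36 and 5.34 in dbTg, against 3.49 and 1.84 in WT. Nearest to Myf5 were Tbc1d20 at 0.02, Plp2 at 0.03 and Cd63, a tetraspanin of late endosomes, at 0.03. Cd63 read 8.17 and 8.16 in dbTg, against 7.12 and 6.93 in WT, a difference of 1.14 from a bright signal.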

How the data were processed

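Total RNA from quadriceps of 2 NF90-NF45 dbTg and 2 WT mice was measured, 1 array each. The deposited values are RMA values on the log2 scale, made by the authors with Affymetrix Expression Console, per the labels; RMA corrects background, normalizes by quantiles and summarises each probe set. Software version and annotation build are not given in the labels. Of 41345 probe sets, 23521 had 1 gene symbol, 1814 several and 16010 none in the platform annotation; 23328 were matched by Entrez identifier to a RefSeq table (GRCm38.p6) and 0 symbols changed. Each gene was read from its brightest single-symbol probe set (22180 genes), and the 13308 with a mean at or above the 40th percentile (1.48) were tested with limma 3.58.1 in R 4.3.3 (lmFit, eBayes with an intensity trend), two-sided, Benjamini-Hochberg adjusted, threshold 0.05. The procedure was run on simulated data with equal spread in both groups, so that run does not speak for genes with unlike spreads. The number of arrays limits the precision. Named were the 9 genes, Ilf2, from each list up to 4 called genes by size or the 2 with the smallest p, and the 3 nearest profiles of the 2 members with the smallest p; Myl4, the fifth called gene of its list, was added after its values were seen. The members and lists were chosen with earlier results of these data known. Alternatives were each array left out, a replicate block, other scalings, filters, probe set summaries and eBayes settings.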

Additional observations from a re-analysis of the deposited data

Results flagged for a closer look

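For 3 of the 9 genes the male and the female pair of mice differed in opposite directions. Between the male mice and between the female mice, in that order, Pax3 differed by -0.39 and 0.39, Mymx by 0.52 and -0.013, and Cdh15 by 0.25 and -0.69. Each pair is 1 dbTg against 1 WT mouse, so the difference between the sexes was not tested.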

How the results depend on the processing

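Leaving out 1 array gave 4 to 610 genes higher and 0 to 156 lower (main 267 and 27), and 0 to 4 of the 9 genes higher (main 2). With the replicate number as a block, 63 genes were higher, 2 lower and 0 of the 9 higher (Mymk adjusted p = 0.0768, Myf5 0.0958; Id2 0.0589); the numbers also separate the sexes, but same-numbered arrays deviated together with a correlation of only 0.05. Quantile normalization gave 120 higher, 7 lower and 0 of the 9; median centring, which shifts all differences so that their median is -0.16, gave 124, 65 and 0. No intensity filter gave 165, 7 and 1, and the filter at the 20th percentile 9 lower and 1 of the 9, Mymk in both cases. The filter at the 60th percentile gave 44 lower and eBayes without a trend 14. With 1 array left out, Pax3 ranged from -0.30 to 0.30, positive when WT replicate 1 or dbTg replicate 1 (0.09) was left out. Cdh15 ranged from -0.47 to 0.026, positive when WT replicate 2 or dbTg replicate 2 (0.0050) was left out. The cause of these shifts was not tested. Of the 9 genes, Myf5, Myod1, Myf6, Myog, Mymk and Mymx kept a positive and Pax7 a negative difference in all alternatives that tested them.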
